A study of Homo sapiens with 12 samples.

Results

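The comparison set 3 arrays of ML-2 cells given SGI-110 before ASTX660 against 3 arrays of ML-2 cells given ASTX660 without SGI-110, across all genes. These 6 arrays were chosen from the 12 of the series by their titles and treatment labels, and 12689 genes could be tested. ML-2 is an established human acute myeloid leukaemia cell line. The combination cells received 2 µM SGI-110 for 24 h and then 5 µM ASTX660 for 9 h. The ASTX660 cells received solvent for 24 h and then 5 µM ASTX660 for 9 h, so both groups carry the second agent and differ in the pretreatment. The SGI-110 cells received 2 µM SGI-110 for 33 h and the solvent cells neither agent. Those groups, also of 3 arrays each, were used for the shared estimate of the spread and for the same SGI-110 question in cells without ASTX660. The design text speaks of 3 independent experiments, 1 for each array of a group. The titles carry the numbers 2, 9 and 13, whose meaning the labels do not state, and array values below are given in that order. No source used here says whether SGI-110 stayed in the medium while ASTX660 was on, and all results rest on 1 cell line.

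SGI-110, or guadecitabine, is a dinucleotide that releases decitabine, a cytidine analogue. Decitabine is built into replicating DNA and traps DNA methyltransferases there, so methylation is lost as cells divide, and it is also known to raise p53 and the DNA damage response. ASTX660, or tolinapant, binds inhibitor of apoptosis proteins such as XIAP and BIRC2, which hold back caspases and steer signalling from TNF-family receptors towards cell survival. The comparison asks what SGI-110 adds to the transcriptome of cells in which those proteins are already targeted. Values are RMA log2 intensities, on which a difference of 1 is 2-fold. Levels of different probe sets are not comparable with each other. In cultures collected as a whole, a change in the mix of cells and a change in RNA per cell cannot be told apart.

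Arrays of a group resembled each other closely, and the array numbered 13 of each group and ASTX660 array 2 stood apart. The lowest correlation between arrays of a group was 0.9948, and array medians lay between 4.688 and 4.774. The largest axis of variation, 51.2% of the variance among all 12 arrays, set the combination and SGI-110 arrays on one side and the ASTX660 and solvent arrays on the other. On the next axis, with 13.95% of the variance, the arrays numbered 13 scored −10.84 to −7.888 in the 4 groups, and the other 8 arrays 2.532 to 7.424. Each number 13 array had 20 to 23 genes at least 1 log2 from the mean of the other arrays of its group, and the other arrays had 2 to 7. ASTX660 array 2 stood apart on an axis that held 11.7% of the variance. Its score there was 16.95, while the other 11 arrays ranged from −9.277 to 4.108. Its genes deviated from the mean of the other ASTX660 arrays with an SD of 0.1962, where the same measure was 0.1253 to 0.173 for every other array. THBS1, which encodes the matrix protein thrombospondin, read 5.88 on it against 4.89 and 4.73 on ASTX660 arrays 9 and 13. The linker histone gene H1-2 read 7.34 on it against 8.49 and 9.02. Its difference between the 3′ and 5′ control probe sets of ACTB was 0.07666, the highest of the 12 arrays, which reached down to −0.09605. The same difference for GAPDH was −0.02289 on it, inside the range of the 12 arrays (−0.06162 to 0.02026). The part of these arrays in the results was not tested beyond leaving them out, and counts are given with and without ASTX660 array 2 where that changes them.

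**Figure D1:**
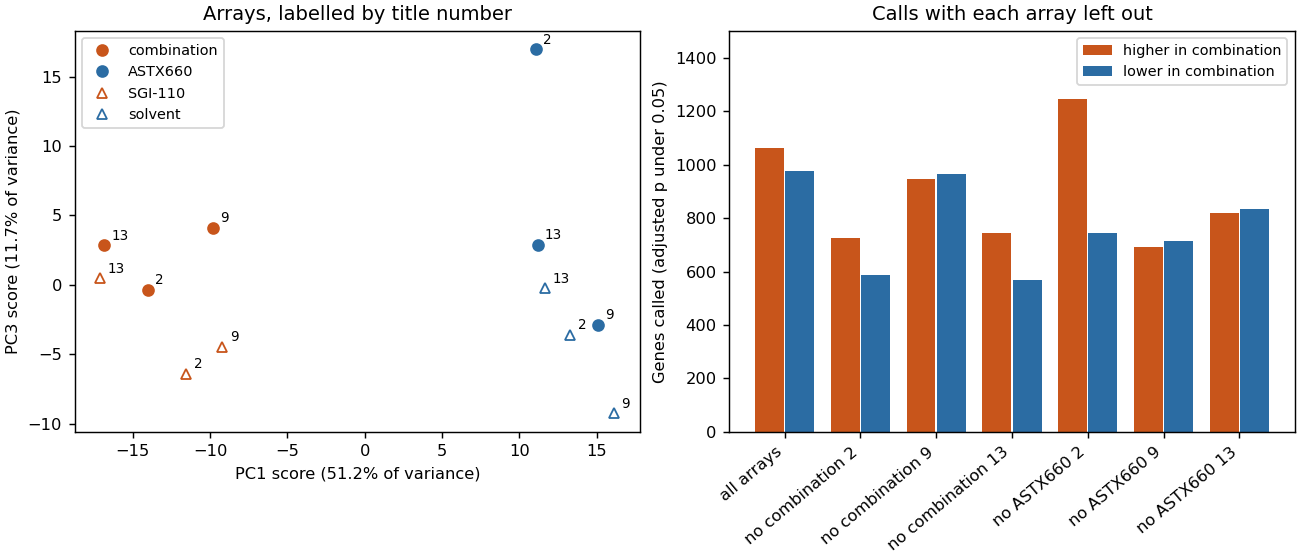
Left, scores of the 12 arrays on principal components 1 and 3 of the tested genes, labelled by title number, with ASTX660 array 2 alone at the top (16.95). Right, numbers of genes called higher and lower in the combination, with all arrays and with each of the 6 arrays left out in turn. Without ASTX660 array 2 the counts were 1246 higher and 746 lower, against 1062 and 976 with all arrays.

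Adding SGI-110 before ASTX660 changed 2038 of 12689 genes at a limma Benjamini-Hochberg adjusted p under 0.05, or 16.1%. Of these, 1062 rose (8.37% of the genes tested) and 976 fell (7.69%). Rises were larger than falls: the median log2 difference was 0.40 among genes called higher and −0.30 among genes called lower. Differences of at least 2-fold were called in 82 genes (0.646%), of which 77 rose (0.607%) and 5 fell (0.0394%). Differences of at least 1.5-fold were called in 312 genes (2.46%), of which 271 rose (2.14%) and 41 fell (0.323%). In 1992 of the 2038 called genes the values of the combination arrays did not overlap those of the ASTX660 arrays, which was also so in 29.4% of all genes tested. The 95% interval of the difference lay within 1.5-fold either way for 91.34% of genes.

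Leaving out ASTX660 array 2 moved the balance of rises and falls, with 86 genes called at least 2-fold higher and 4 lower. Without it limma called 1992 genes (15.7%), 1246 higher (9.82%) and 746 lower (5.88%), so the share of calls that were higher moved to 62.55%, against 52.11% with all arrays. Of the original calls 1585 were kept (924 higher and 661 lower), 453 were lost (138 higher and 315 lower) and 407 were gained (322 higher and 85 lower). Counts were lower when combination array 2 (1310 calls, 586 lower) or combination array 13 (1313 calls, 567 lower) was left out, and without ASTX660 array 9 the genes called higher numbered 691. With the arrays numbered 13 left out of all 4 groups, an alternative chosen after seeing the data that leaves 2 arrays a group, limma called 1054 genes, 629 higher and 425 lower. Of those, 953 were among the 2038 and had the same direction. In that fit 26 p53 targets and 9 myeloid maturation genes were called higher, and 9 genes of the integrated stress response, 9 of MYC and ribosome synthesis and 12 of G2/M and mitosis lower. Of the 77 genes called at least 2-fold higher, 71 stayed called in each of the 6 fits that left out 1 array. Among all calls 950 did so, 546 higher and 404 lower.

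The gene with the largest rise was TKTL1, a transketolase-like gene whose expression is normally strongest in testis. It read 7.88, 7.67 and 8.40 in the combination arrays, against 3.72, 4.05 and 3.64 in the ASTX660 arrays. All 3 ASTX660 values lay below every array median, so the 18.11-fold difference (4.18 log2, SE 0.2391, limma adjusted p = 1.828e-07) starts at background, and its other probe set gave 2.06. MAEL, which protects germ cells from transposons, read 5.64, 6.48 and 6.10 in the combination arrays, against 3.83, 3.76 and 3.78 in the ASTX660 arrays (2.29 log2, SE 0.2162, adjusted p = 1.991e-05). HORMAD1, a protein of the meiotic chromosome axis, read 4.89, 5.94 and 6.26 in the combination arrays, against 3.42, 3.63 and 3.19 in the ASTX660 arrays (2.28 log2). The lowest HORMAD1 value of the combination was that of array 2, still above all ASTX660 values. MAGEB2, a MAGE-family cancer-testis antigen, read 5.48, 5.97 and 5.51 in the combination arrays and 4.24, 4.24 and 3.66 in the ASTX660 arrays (1.60 log2). Cancer-testis genes are those whose expression is largely held to the germline and which many tumours switch on, often where promoter methylation is lost. Of 45 such genes listed, 35 were read by the arrays and 6 were bright enough to be tested, of which these 4 were called and 2 were not. The other 29 genes read by the arrays were not tested. Genes that start at background enter the test through the arrays in which they are high, so the count carries no weight beyond the named genes.

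Promoters of 3 of these genes are shown because CpG methylation is the mark that decitabine removes. Each runs from 250 bases before to 50 bases after the annotated start in RefSeq GRCh38.p14, on the gene's own strand, with each CG in capitals.
TKTL1: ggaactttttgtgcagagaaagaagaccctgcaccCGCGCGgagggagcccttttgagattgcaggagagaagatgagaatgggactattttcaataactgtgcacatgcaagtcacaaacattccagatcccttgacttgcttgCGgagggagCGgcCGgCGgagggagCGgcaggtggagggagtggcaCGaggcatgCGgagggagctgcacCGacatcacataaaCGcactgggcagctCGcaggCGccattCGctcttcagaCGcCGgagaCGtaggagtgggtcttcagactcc
MAEL: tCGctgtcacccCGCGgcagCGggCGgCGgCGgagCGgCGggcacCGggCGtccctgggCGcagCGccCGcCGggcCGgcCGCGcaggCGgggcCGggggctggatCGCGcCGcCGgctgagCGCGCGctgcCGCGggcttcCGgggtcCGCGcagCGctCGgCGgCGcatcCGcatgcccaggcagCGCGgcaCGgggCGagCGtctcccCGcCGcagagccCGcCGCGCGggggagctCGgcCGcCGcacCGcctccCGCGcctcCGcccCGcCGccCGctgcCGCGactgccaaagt
MAGEB2: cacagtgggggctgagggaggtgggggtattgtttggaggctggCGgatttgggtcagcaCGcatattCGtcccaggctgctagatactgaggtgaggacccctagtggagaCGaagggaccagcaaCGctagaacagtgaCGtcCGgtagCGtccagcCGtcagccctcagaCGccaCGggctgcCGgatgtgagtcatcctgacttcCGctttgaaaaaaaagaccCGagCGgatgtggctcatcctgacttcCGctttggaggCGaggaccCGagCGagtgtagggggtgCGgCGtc
The TKTL1 promoter (chrX:154295545-154295844, plus strand) held 18 CpGs, as many as or more than 57.04% of 27305 human promoters of this length. MAEL (chr1:166975332-166975631, plus strand) held 60 CpGs, in the densest end of the range at 99.95%. MAGEB2 (chrX:30215313-30215612, plus strand) held 21 CpGs (62.39%), where the median promoter held 14 and 95.84% held at least 1. No methylation was measured here, and the letters describe the windows only.

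Of the 24 gene lists examined, that of p53 targets had the most rises. TP53I3, a p53-induced oxidoreductase, read 8.96, 8.48 and 9.03 in the combination arrays, against 5.06, 4.77 and 5.38 in the ASTX660 arrays, a 13.48-fold difference (3.75 log2, SE 0.1974, limma adjusted p = 1.042e-07). The lowest combination value lay far above the highest ASTX660 value. CDKN1A, which encodes the cell-cycle inhibitor p21, read 10.43, 10.29 and 10.63 in the combination arrays, against 8.45, 8.23 and 8.44 in the ASTX660 arrays (2.08 log2, SE 0.1165, adjusted p = 1.714e-07). TP53INP1, a stress protein that acts with p53, rose by 1.97 log2, although its other probe sets reached down to −0.09. MDM2, the ubiquitin ligase that degrades p53, read 11.36, 11.58 and 11.35 in the combination arrays, against 10.34, 10.07 and 10.26 in the ASTX660 arrays. Its difference of 1.21 log2 (adjusted p = 6.019e-07) was among the high-intensity changes, with 10 probe sets between 0.14 and 2.14.

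The rest of the set spanned arrest, repair and metabolism. SESN1, a sestrin that restrains mTORC1, read 9.34, 9.30 and 9.27 in the combination arrays, against 7.93, 7.75 and 7.65 in the ASTX660 arrays (1.53 log2, SE 0.07561, adjusted p = 1.042e-07). The kinase gene PLK2 rose by 1.78 log2, the DNA damage gene GADD45A by 1.52, the secreted stress cytokine GDF15 by 1.47 (its ASTX660 mean below every array median) and the RNA-binding protein gene ZMAT3 by 1.29. DDB2, which recognises ultraviolet lesions, rose by 1.06, and TIGAR, a regulator of glycolysis, by 0.71. PPM1D, the phosphatase that turns off p53 signalling, rose by 0.53, and RRM2B, the p53-inducible ribonucleotide reductase subunit, by 0.62. Of 40 listed p53 targets 35 were tested; 29 rose, 0 fell and 6 did not pass, where 8.37% of all genes were called higher. The median difference of the 35 was 0.71 log2, against −0.01 for all genes. The same 29 members were called without ASTX660 array 2, at a median of 0.80. Among those that did not pass, the BH3-only gene PMAIP1 had −0.25 (adjusted p = 0.266) and SESN2 0.23 (0.2136).

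Promoters of the top pair of p53 targets are shown in the same windows, since p53 acts through DNA sites.
TP53I3: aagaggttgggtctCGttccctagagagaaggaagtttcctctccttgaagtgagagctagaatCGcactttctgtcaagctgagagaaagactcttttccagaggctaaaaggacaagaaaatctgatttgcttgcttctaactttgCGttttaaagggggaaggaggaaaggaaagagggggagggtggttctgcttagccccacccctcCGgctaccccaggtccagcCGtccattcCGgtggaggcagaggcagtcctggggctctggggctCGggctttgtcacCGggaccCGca
CDKN1A: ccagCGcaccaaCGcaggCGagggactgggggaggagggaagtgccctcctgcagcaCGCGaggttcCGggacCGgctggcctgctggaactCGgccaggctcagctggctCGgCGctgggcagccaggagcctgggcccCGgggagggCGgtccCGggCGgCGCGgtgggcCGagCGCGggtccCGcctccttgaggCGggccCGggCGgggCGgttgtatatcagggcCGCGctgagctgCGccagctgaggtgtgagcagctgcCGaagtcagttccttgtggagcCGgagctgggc
The TP53I3 window (chr2:24084785-24085084, minus strand) held 9 CpGs and the CDKN1A window (chr6:36678464-36678763, plus strand) 29. The p53 half-site decamer, searched by its consensus on both strands, was in neither window. It was in 6.541% of all promoters, in 6.068% of genes called higher, in 4.629% of genes called lower and in 5.144% of genes tested, and its absence from a window of this length says only that these letters are not there.

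**Figure D2:**
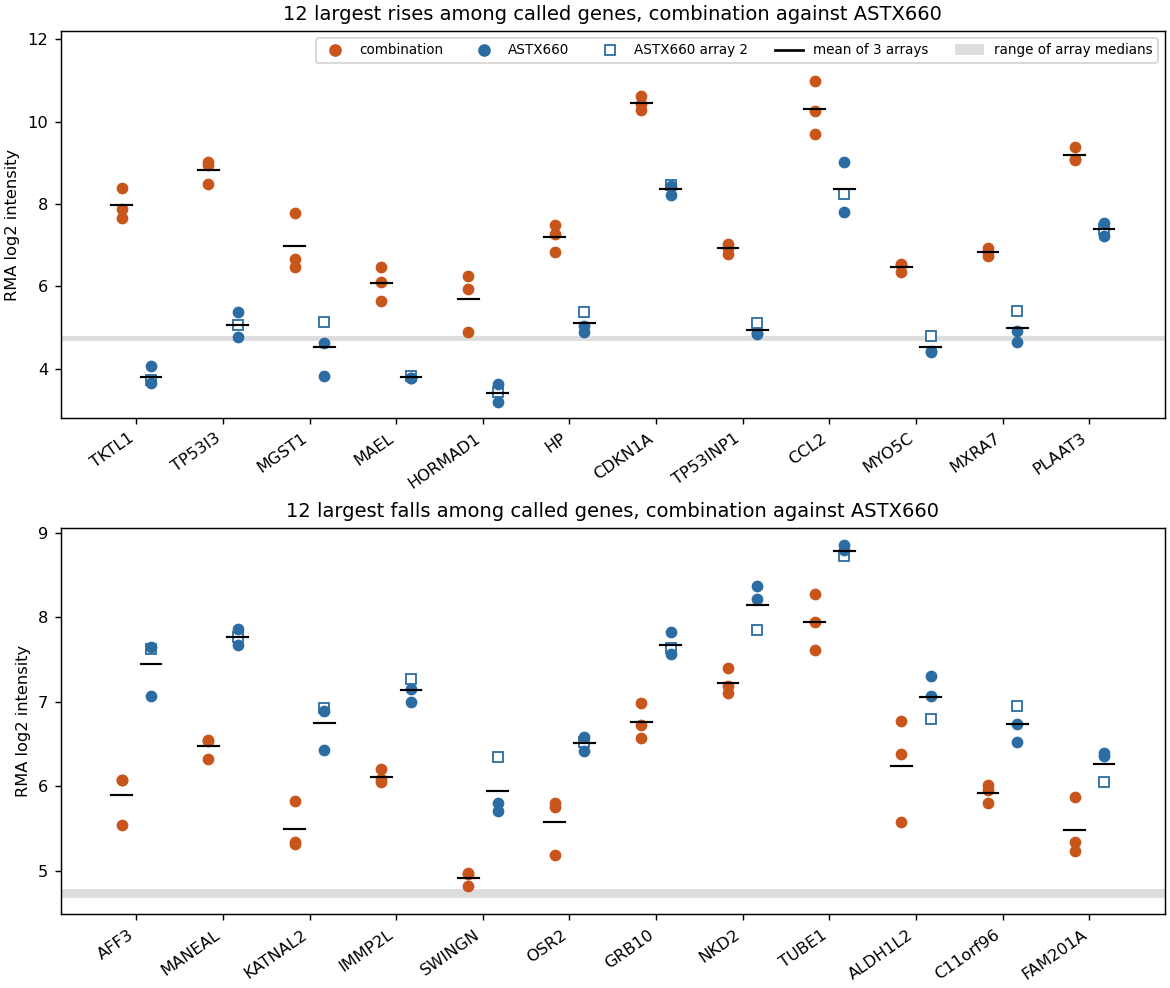
RMA log2 intensity on each array for the 12 largest rises (top) and the 12 largest falls (bottom) among genes called with no overlap between groups, combination at the left of each pair and ASTX660 at the right. Open squares mark ASTX660 array 2, black lines the means of 3 arrays and the grey band the range of array medians. TKTL1, MAEL and HORMAD1 start below the band in ASTX660 cells, whereas CDKN1A lies well above it in both groups.

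Genes of several death receptors rose as well. FAS, the receptor of FAS ligand, read 8.53, 8.41 and 8.27 in the combination arrays, against 7.15, 6.98 and 6.90 in the ASTX660 arrays (1.39 log2, SE 0.09715, limma adjusted p = 1.057e-06, 2.624-fold). TNFRSF10B, which encodes TRAIL receptor 2, read 10.55, 10.49 and 10.42 in the combination arrays, against 9.75, 9.39 and 9.48 in the ASTX660 arrays (0.95 log2, adjusted p = 7.303e-06). FAS and TNFRSF10B are also p53 targets and stand in both lists. The decoy TRAIL receptor gene TNFRSF10D rose by 0.78 (adjusted p = 0.0007538). The ligand gene TNF read 6.93, 6.94 and 6.97 in the combination arrays, against 6.40, 6.37 and 6.45 in the ASTX660 arrays (0.54 log2, adjusted p = 0.0005897), a small difference with tight groups. RIPK3, a kinase of necroptosis, rose by 0.34. TNFRSF1A, the main TNF receptor, had 0.18 (adjusted p = 0.03851), a call that was lost whichever of the 6 arrays was left out (0.05007 to 0.144, and 0.05608 without ASTX660 array 2).

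The other tested members of the extrinsic list were not called with all arrays. CASP8, the initiator caspase, had 0.08 (adjusted p = 0.6264) and its regulator CFLAR 0.12 (0.2664). TRAIL itself (TNFSF10) had 0.23 (0.2428) and TRAIL receptor 1 (TNFRSF10A) 0.21 (0.1085). Of 18 tested members of the extrinsic list 6 rose and 0 fell, with a median of 0.18, where 8.37% of all genes rose. The count was 7 and 0 without ASTX660 array 2, with CYLD and MLKL gained, and 5 and 0 in each fit that left out another array. The targets of ASTX660 were not called. XIAP had 0.00 (SE 0.08952, adjusted p = 0.9847) and BIRC2 0.07 (SE 0.07935, adjusted p = 0.5866), while DIABLO, their natural antagonist, had −0.05 (adjusted p = 0.607). BIRC5, or survivin, had −0.14 (adjusted p = 0.1018). Of the 5 tested members of the inhibitor of apoptosis family, NAIP was called (0.40, adjusted p = 0.02392). It did not pass without ASTX660 array 2 (0.0805) or 9 (0.05578) or without combination array 2 (0.05368) or 9 (0.08585). BIRC3 and RIPK1 were not analysed here.

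In the mitochondrial pathway BAX, which permeabilises the outer mitochondrial membrane and is itself a p53 target, read 9.81, 9.63 and 9.70 in the combination arrays, against 9.05, 8.81 and 8.83 in the ASTX660 arrays. Its difference was 0.82 log2 (SE 0.07522, limma adjusted p = 1.702e-05). APAF1, the scaffold of the apoptosome, rose by 0.40 (adjusted p = 0.01441), with ASTX660 array 2 at 10.11, close to combination array 2 at 10.13. It did not pass without combination array 9 (0.05452) or ASTX660 array 9 (0.06674). HTRA2, a mitochondrial protease that antagonises inhibitor of apoptosis proteins, rose by 0.30. CYCS, or cytochrome c, had −0.15, BCL2 −0.26 (adjusted p = 0.04027) and BIK −0.18, each called lower with all arrays. BCL2 lost its call in 5 of the 6 fits with 1 array left out (0.05241 to 0.1305), all but that without ASTX660 array 9. BIK lost it without ASTX660 arrays 2 or 9 or combination arrays 9 or 13 (0.05085 to 0.08085), and CYCS without combination arrays 2 or 13 or ASTX660 array 9 (0.05377 to 0.06726). The survival genes MCL1 (0.19, adjusted p = 0.2268) and BCL2L1 (−0.06, adjusted p = 0.5718) did not pass. In all, 3 of 17 tested members rose and 3 fell, where 8.37% of all genes rose and 7.69% fell. The count was 6 and 1 without ASTX660 array 2, when BCL2L11, BCL2L2 and CASP9 were gained, and 2 to 3 rose and 0 to 2 fell in the fits that left out any other array.

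Inflammatory and interferon genes moved upward in part. CCL2, a monocyte chemoattractant, read 10.26, 9.70 and 10.99 in the combination arrays, against 8.25, 7.80 and 9.01 in the ASTX660 arrays (1.96 log2, SE 0.4106, limma adjusted p = 0.005613). Array 13 was highest and array 9 lowest within each group. IER3, an immediate early gene of survival signalling, rose by 1.59 (adjusted p = 3.457e-05), and the neutrophil chemokines CXCL8 and CXCL1 by 0.81 and 0.74. CXCL1 was high on ASTX660 array 2, at 8.80 against 7.85 and 8.16 on the other ASTX660 arrays, and its difference was 1.00 without it. It did not pass without ASTX660 array 9 (0.1077) or 13 (0.06737) or without combination array 2 (0.09865) or 13 (0.05101). TNFAIP3, the feedback inhibitor A20, rose by 0.36. SOD2 had −0.49 (adjusted p = 0.02814), which did not pass without ASTX660 array 2 (0.1031) or without combination array 2 (0.07602) or 13 (0.1207). Of 20 tested NF-kB targets 7 rose and 1 fell, at a median of 0.28, where 8.37% of all genes rose and 7.69% fell. The count was 10 and 0 without ASTX660 array 2, with CXCL2, ICAM1 and NFKBIE gained. With any other array left out 5 to 8 rose and 0 to 1 fell.

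Of 25 tested interferon-stimulated genes 11 rose and 0 fell, at a median of 0.23, where 8.37% of all genes rose. The count was 12 and 0 without ASTX660 array 2, and 9 and 0 without combination array 13 or ASTX660 array 13. TRIM22, an antiviral protein gene that p53 also activates, read 10.58, 10.53 and 10.56 in the combination arrays, against 9.73, 9.35 and 9.42 in the ASTX660 arrays (1.06 log2, adjusted p = 1.991e-05). IFIT3 rose by 0.72, IFI6 by 0.66, the transcription factor gene IRF7 by 0.63 and HERC5, the ligase of ISG15, by 0.52. In antigen presentation by MHC class I, 7 of 18 tested members rose and 0 fell, at a median of 0.14. Of all genes tested 8.37% rose. The peptide transporter gene TAP1 rose by 0.49 and HLA-E by 0.32, while HLA probe sets can read related genes. Without combination array 2 the class I count was 4.

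Genes of monocyte and granulocyte maturation also rose in large part. LGALS3, or galectin 3, a macrophage lectin, read 11.06, 10.94 and 11.22 in the combination arrays, against 9.89, 9.76 and 9.89 in the ASTX660 arrays (1.22 log2, SE 0.07767, limma adjusted p = 5.197e-07). A dimmer LGALS3 probe set gave −0.07. CSF1R, the receptor that drives macrophage growth, read 6.71, 6.12 and 6.63 in the combination arrays, against 5.38, 5.55 and 5.62 in the ASTX660 arrays (0.97 log2, adjusted p = 0.0003299). HP, the haptoglobin gene, rose by 2.10 and FGL2 by 0.97. NCF1, a subunit of the phagocyte oxidase whose probes can read its pseudogenes, read 9.88, 9.28 and 9.93 in the combination arrays, against 8.42, 8.06 and 8.59 in the ASTX660 arrays (1.34 log2). CD86, a costimulatory molecule, read 4.92, 4.84 and 6.31 in the combination arrays, against 3.62, 4.01 and 4.09 in the ASTX660 arrays, so array 13 was well above the other combination arrays (1.45 log2, adjusted p = 0.008664). The ASTX660 values of CD86 lay below every array median, so its difference starts at background and it entered the test through the arrays in which it is high. VCAN had 1.42 (adjusted p = 0.04825), not passing without ASTX660 arrays 2 or 9 or combination arrays 2 or 13 (0.08315 to 0.1908). Taken by title number, its differences were 1.46, 1.32 and 1.47. In an alternative limma fit with the title number as a block it was called (adjusted p = 1.004e-10). IRF8, a transcription factor of monocyte and dendritic lineages, fell by 0.39.

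Of 25 tested maturation genes 14 rose and 1 fell, at a median of 0.43, where 8.37% of all genes rose and 7.69% fell. Leaving out ASTX660 array 2 gave 12 rises and 1 fall, with CYBB, S100A8 and VCAN lost and TLR2 gained. The count of rises dropped to 9 without combination array 13, combination array 2 or ASTX660 array 9. The 14 include CD86 and S100A8, whose ASTX660 means lay below every array median. Of 11 tested genes of progenitor granules, CAMP, a cathelicidin, rose by 0.70 and MMP9 by 0.55, the second not without ASTX660 arrays 2 or 13 or combination array 13 (adjusted p 0.05224 to 0.07737). This was 18.18% of the granule list, against 8.37% of all genes. Of 17 listed genes of the HOXA and MEIS1 programme, 8 were read by the arrays and 7 were tested, so the programme was covered only in part. MEIS1 itself averaged 3.249 in the combination and 3.351 in ASTX660, below every array median. Of the 7 tested genes limma called 0, and 0 had an unadjusted p under 0.05. KMT2A, the methyltransferase gene of that programme, had 0.40 (limma adjusted p = 0.2786), and its 11 probe sets ran from −0.22 to 0.51. It read 6.53 on ASTX660 array 2, against 7.06 and 7.68 on ASTX660 arrays 9 and 13. Without ASTX660 array 2 its difference was 0.11 (adjusted p = 0.755). It was called without ASTX660 array 13 (0.69) and with all arrays numbered 13 left out (0.55), fits in which ASTX660 array 2 remained.

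Markers of the line were read above the array medians in part, as were markers of other lineages. The counts below do not tell the lineages apart, and averages of different lists are not comparable with each other. Of 13 myeloid leukaemia markers read, 9 lay above every array median in both groups, among them MPO and LYZ, whereas ANPEP, FCGR1A, KIT and MEIS1 lay below. The mean level of these 13 markers was 7.409 to 7.514 in the combination arrays and 7.224 to 7.293 in the ASTX660 arrays. Erythroid markers (7 of 13 above the medians in each group) averaged 5.565 to 5.624 in the combination arrays and 5.593 to 5.601 in the ASTX660 arrays, and 0 of 7 tested were called. Lymphoid markers averaged 4.859 to 4.966 in the combination arrays and 4.821 to 4.963 in the ASTX660 arrays. Of 18 read, 9 lay above the medians in the combination and 8 in ASTX660. Of 10 tested NKG7 was called (0.22), though not without combination array 13 or ASTX660 arrays 9 or 13. Fibroblast and epithelial markers averaged 5.548 to 5.748 in the combination arrays and 5.33 to 5.464 in the ASTX660 arrays. Of 16 read, 9 lay above the medians in the combination and 10 in ASTX660. Of the 10 tested, 4 were called higher, where 8.37% of all genes were: ACTA2 (1.39, probe sets 0.03 to 1.39), KRT18 (0.76), KRT8 (0.62) and PDGFRB (0.38). Leaving out ASTX660 array 2, ASTX660 array 9 or combination array 13 left 2. Their part in the other results was not tested.

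Among the listed genes the falls were small, and they came mainly in the stress response, ribosome synthesis and mitosis lists. The integrated stress response is the programme in which the transcription factor ATF4 switches on amino acid transport and synthesis. ATF4 read 12.07, 12.09 and 12 in the combination arrays, against 12.44, 12.47 and 12.46 in the ASTX660 arrays (−0.40 log2, SE 0.04338, limma adjusted p = 5.416e-05). SLC7A5, the light chain of the large neutral amino acid transporter, read 9.58, 9.71 and 9.64 in the combination arrays, against 10.23, 10.33 and 10.34 in the ASTX660 arrays (−0.66 log2, SE 0.05906, adjusted p = 1.461e-05). Both genes had groups far tighter than the gap between them. Its partner SLC3A2 fell by 0.38 and the cystine transporter gene SLC7A11 by 0.64. PHGDH, which starts serine synthesis, fell by 0.52, and PSPH, the last enzyme of serine synthesis, by 0.41. ASNS, which makes asparagine, had −0.52 (adjusted p = 0.02099), not passing without combination arrays 2 or 13 or ASTX660 array 9 (0.08351 to 0.08851). VEGFA fell by 0.59. Of 27 tested members 15 fell and 0 rose, where 7.69% of all genes were called lower, and the median was −0.35. The count was 17 and 0 without ASTX660 array 2, with ALDH1L2 lost and TRIB3, DDIT4 and SLC1A5 gained. Without combination array 2 or ASTX660 array 9 it was 12 and 0.

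In the unfolded protein response 3 of 21 tested members fell, the transcription factor gene XBP1 by 0.40, HYOU1 by 0.32 and SDF2L1 by 0.28, while EDEM1 rose by 0.30. Of all genes tested 7.69% fell and 8.37% rose. SDF2L1 lost its call in 4 of the 6 fits with 1 array left out (adjusted p 0.07809 to 0.108), and without ASTX660 array 13 there were 6 falls. XBP1 had a further probe set at 0.22. In oxidative and heat stress 8 of 22 rose and 6 fell, and 5 rose without ASTX660 array 13. Without ASTX660 array 2 or combination array 13, 4 fell. The metallothioneins MT2A (0.47) and MT1X (0.36) rose, with probes that can read relatives, and HSPD1, the mitochondrial chaperonin, fell by 0.22. HMOX1, whose ASTX660 mean lay below every array median, was called (0.50) with all arrays and not without ASTX660 arrays 2 or 13 or combination array 2 (adjusted p 0.06139 to 0.1074). Sterol synthesis had 3 falls among 21 tested (14.29%, against 7.69% of all genes), HMGCS1 (−0.47), LSS (−0.38) and INSIG1 (−0.23). None of the 3 stayed called without combination array 2 or ASTX660 array 9. HMGCS1 was also lost without ASTX660 array 2 (adjusted p = 0.066), and the list had 1 fall without combination array 13.

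MYC and most of the listed ribosome synthesis genes fell. MYC read 11.25, 11.12 and 10.91 in the combination arrays, against 11.54, 11.58 and 11.53 in the ASTX660 arrays (−0.46 log2, SE 0.06596, limma adjusted p = 0.000452). The highest combination value lay below the lowest ASTX660 value. RRP9 fell by 0.44, NOP16 by 0.40 and RRS1 by 0.34, all nucleolar factors of ribosome assembly, and nucleolin (NCL) by 0.27. Of 23 tested members 18 fell and 0 rose, at a median of −0.22, where 7.69% of all genes fell. There were 12 falls without ASTX660 array 2, with CAD, LDHA, NOLC1, NOP58, POLR1A and POLR1B lost. Without combination array 13 there were 9, without combination array 2 there were 11 and without ASTX660 array 9 there were 12.

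Part of the listed mitotic genes fell too, by small steps at high intensity. BUB1, a spindle checkpoint kinase, read 9.54, 9.50 and 9.59 in the combination arrays, against 10.11, 9.87 and 9.96 in the ASTX660 arrays (−0.43 log2, SE 0.06463, limma adjusted p = 0.0005591). The 5 BUB1 probe sets ran from −0.43 to −0.01. HMMR, a spindle-associated protein gene, fell by 0.48, CKS2 by 0.35, BUB1B by 0.33 and cyclin B2 (CCNB2) by 0.30. Of 43 tested G2/M and mitosis genes 19 fell and 0 rose, at a median of −0.23. There were 11 falls without ASTX660 array 2, with CDC25B, CENPA, CENPE, KIF20A, KIF4A, PTTG1, TPX2 and TTK lost, and without combination array 9 there were 12. Of 33 tested genes of G1/S and replication 3 rose and 3 fell, shares near the 8.37% and 7.69% of all genes, and 1 to 3 rose and 0 to 3 fell with 1 of the 6 arrays left out. Cyclin D3 (CCND3) rose by 0.48, although its other probe set gave 0. Its partner kinase gene CDK4 had −0.17, not passing without combination arrays 2 or 13 or ASTX660 arrays 9 or 13 (adjusted p 0.08218 to 0.1173). Among 16 replication-dependent histone genes H3C2 (−0.49), H2BC4 (−0.44) and H2BC9 were called lower (18.75%, against 7.69% of all genes). H2BC9 lost its call whichever array was left out (0.0571 to 0.1173) and H3C2 without combination array 2 (0.05703).

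**Figure D3:**
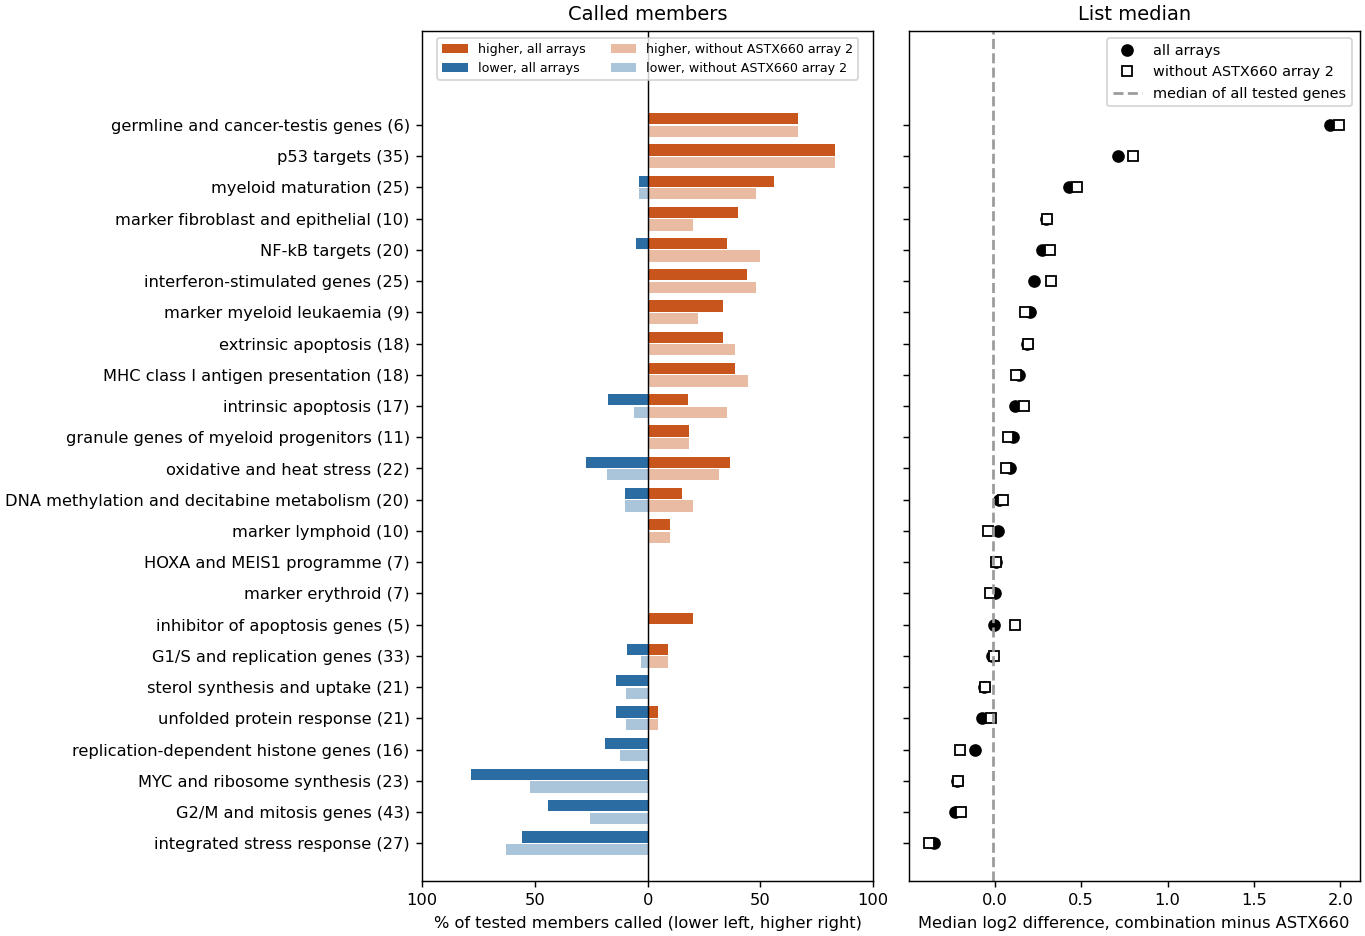
Left, share of the tested members of each gene list called higher (to the right) or lower (to the left) in the combination, with all arrays and, paler, without ASTX660 array 2. Right, median log2 difference of each list with and without that array, beside the median of all tested genes. p53 targets lie at 0.71 and the integrated stress response at −0.35.

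In the list of DNA methylation and decitabine metabolism, neither DNMT1 nor DCK passed the test. DNMT1, the maintenance methyltransferase that decitabine traps, read 11.09, 11.16 and 11.10 in the combination arrays, against 11.10, 11.07 and 11.04 in the ASTX660 arrays (0.05 log2, SE 0.04481, limma adjusted p = 0.5389). The groups overlapped. DNMT3B had 0.19 (adjusted p = 0.1906) and DCK, the kinase that activates decitabine, 0.00 (SE 0.06672, adjusted p = 0.988). DNMT3A was called higher by 0.33 (adjusted p = 0.04317) and SAMHD1, which cleaves decitabine triphosphate, by 0.35 (adjusted p = 0.03846). DNMT3A lost its call without any of the combination arrays or without ASTX660 array 9 (0.06287 to 0.167). SAMHD1 lost it without combination arrays 2 or 13 or ASTX660 arrays 9 or 13 (0.09427 to 0.1599). DCTD, the deaminase of dCMP, fell by 0.34 and IDH1 by 0.35. In all, 3 of 20 tested members rose and 2 fell, where 8.37% of all genes rose and 7.69% fell, and 0 rose without combination arrays 2 or 13 or ASTX660 array 9.

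The genes called at least 2-fold lower numbered 5, though 12 without combination array 9 and 1 with the mean of all probe sets of a gene. AFF3, a gene of the AF4 family of elongation factors, read 6.07, 6.07 and 5.54 in the combination arrays, against 7.62, 7.65 and 7.07 in the ASTX660 arrays (−1.55 log2, SE 0.2070, limma adjusted p = 0.0002785). Array 13 was lowest in both groups, and the 6 AFF3 probe sets ran from −1.55 to −0.03. MANEAL, a homologue of a Golgi mannosidase, read 6.32, 6.54 and 6.55 in the combination arrays, against 7.76, 7.67 and 7.86 in the ASTX660 arrays (−1.29 log2, SE 0.1136, adjusted p = 1.186e-05). KATNAL2, a katanin-like microtubule-severing ATPase gene, read 5.82, 5.34 and 5.32 in the combination arrays and 6.93, 6.43 and 6.89 in the ASTX660 arrays (−1.26 log2). IMMP2L, a subunit of a mitochondrial inner membrane peptidase, and the long noncoding RNA SWINGN each fell by 1.03. Next came OSR2 (−0.93), GRB10, an adaptor of the insulin receptor (−0.92), and NKD2, an inhibitor of WNT signalling (−0.92). The MANEAL promoter is shown as that of the called gene with the second largest fall, beside the promoters of genes that rose.
MANEAL: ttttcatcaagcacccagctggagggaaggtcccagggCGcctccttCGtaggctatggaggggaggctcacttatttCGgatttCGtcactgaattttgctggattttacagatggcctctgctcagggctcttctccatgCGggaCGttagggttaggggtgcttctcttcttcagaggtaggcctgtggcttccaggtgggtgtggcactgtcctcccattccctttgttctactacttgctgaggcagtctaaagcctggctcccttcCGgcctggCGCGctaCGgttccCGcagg
This window (chr1:37795238-37795537, plus strand) held 11 CpGs, as many as or more than 47.14% of human promoters.

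Among the largest rises outside these lists, MGST1, a membrane-bound glutathione transferase, read 6.67, 6.46 and 7.78 in the combination arrays, against 5.12, 3.81 and 4.62 in the ASTX660 arrays (2.45 log2, SE 0.3678, limma adjusted p = 0.0005831). The ASTX660 mean of MGST1 lay below every array median, so the difference starts at background, and ASTX660 array 2 was the highest of its group. The 5 MGST1 probe sets ran from −0.05 to 2.45. MYO5C, a myosin of secretory granule transport, rose by 1.93, also from a mean below every array median, MXRA7 by 1.86 (probe sets −0.07 to 1.86) and the phospholipase gene PLAAT3 by 1.80. PLAAT3 read 9.06, 9.10 and 9.38 in the combination arrays, against 7.39, 7.22 and 7.53 in the ASTX660 arrays, a rise well above background in both groups.

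A larger share of the genes with sizeable falls than of all genes lay near chromosome ends. Of the 41 genes called at least 1.5-fold lower, 13 (31.71%) lay within 5 Mb of the outermost annotated gene of their chromosome, against 14.51% of all tested genes (1837 of 12664 with a position). Among all genes called lower the share was 18.85%, and among genes called higher 10.55%. The share was 32.61% (15 of 46) without ASTX660 array 2 and 40% (12 of 30) for the corresponding genes of SGI-110 against solvent. These shares are descriptions without a test. The 13 include INPP5A, an inositol phosphatase gene on chromosome 10 (−0.76, adjusted p = 5.326e-06), RASA3, a RAS GTPase-activating protein gene on chromosome 13 (−0.67), NKD2 on chromosome 5, SLC7A5 on chromosome 16 and SMYD3 on chromosome 1.

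Genes with 10 or fewer promoter CpGs were called higher more often than lower. Genes called higher and genes called lower both had a median of 26 CpGs in the 300 promoter bases, the same as all tested genes. In genes with 0 to 5 CpGs 8.58% were called higher and 4.086% lower, and with 6 to 10 CpGs 11.24% and 5.109%. With 11 to 20 CpGs the shares were 7.831% higher and 9.036% lower, with 21 to 30 CpGs 7.007% and 9.134%, and with 31 to 100 CpGs, the fullest class at 3539 genes, 9.296% and 8.166%. The balance thus followed no steady order with CpG content, and these shares were not tested. A promoter was at hand for 80.59% of tested genes. For genes called at least 1.5-fold and for the p53 and germline lists fewer than 80% had one, so the check is void there and no shares are given.

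**Figure D4:**
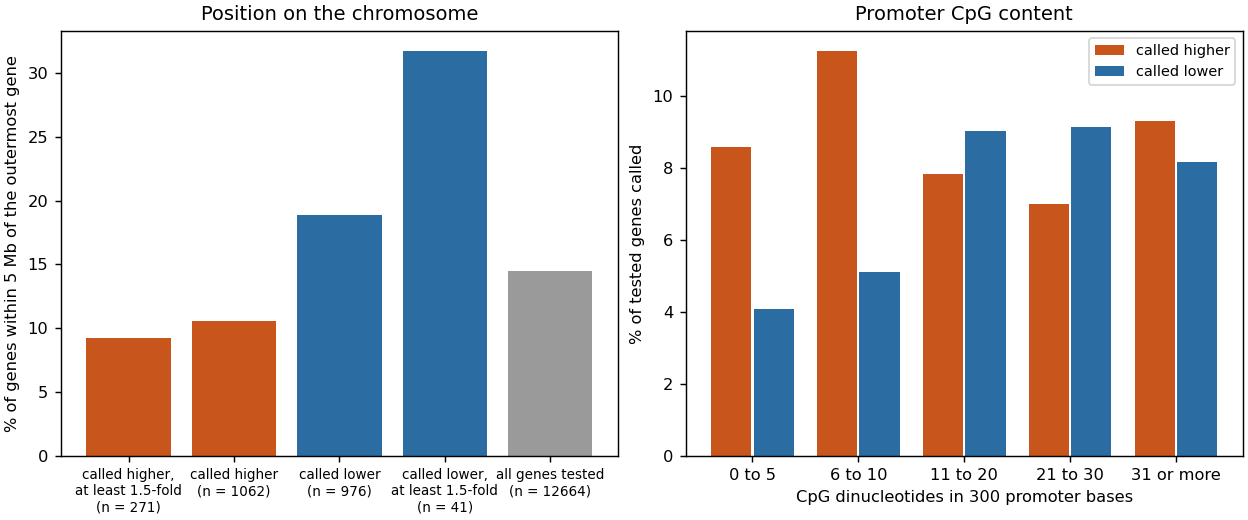
Left, share of genes within 5 Mb of the outermost annotated gene of their chromosome, by call class, rising to 31.71% among the 41 genes called at least 1.5-fold lower, against 14.51% of all tested genes. Right, share of tested genes called higher and lower by number of CpG dinucleotides in the 300 promoter bases.

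SGI-110 in cells without ASTX660 gave an overlapping list. Its label there is 33 h, against 24 h before ASTX660 in the combination, so the time with SGI-110 and the presence of ASTX660 cannot be told apart in what follows. SGI-110 against solvent, which shares no array with combination against ASTX660, called 1955 genes (15.4%), 1206 higher (9.50%) and 749 lower (5.90%). Both comparisons come from the same fit, with a shared spread for each gene, so their calls are not independent. Of the combination calls 71.49% were also called there, which is 74.53% of that list, and all 1457 shared calls had the same direction. Of the 2038 combination calls 2026 had the same sign in SGI-110 against solvent and 12 the opposite. Across genes the log2 differences correlated with Pearson's r of 0.8886 and Spearman's rho of 0.7627 over all tested genes, which are not independent replicates.

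By gene, TKTL1 differed by 4.18 with ASTX660 present and by 3.82 without, TP53I3 by 3.75 and 3.82, CDKN1A by 2.08 and 2.33, FAS by 1.39 and 1.49, and SLC7A5 by −0.66 and −0.65. Of the 35 p53 targets 29 rose in each setting. The test of the difference between both changes, the interaction, called 0 genes in limma, with 0.644 as the smallest adjusted p. At an unadjusted p under 0.05 there were 204 genes, fewer than the 634 expected if no gene differed. The smallest adjusted p was that of KIFC3, a kinesin gene chosen here after its values were seen. Its change was smaller with ASTX660 by 0.61 (SE 0.1063, 95% interval −0.84 to −0.38). KIFC3 averaged 5.748 in the combination and 5.658 in ASTX660, against 5.948 in SGI-110 and 5.245 in solvent. CSF1R rose by 0.97 with ASTX660 and by 0.52 without it, an interaction with a 95% interval of 0.05 to 0.85 and an adjusted p of 1. The interval of the interaction lay within 1.5-fold for 92.73% of all genes and 90.58% of the called ones, and within 2-fold for 99.43% of all genes. Smaller differences between both settings were not resolved with 3 arrays a group.

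**Figure D5:**
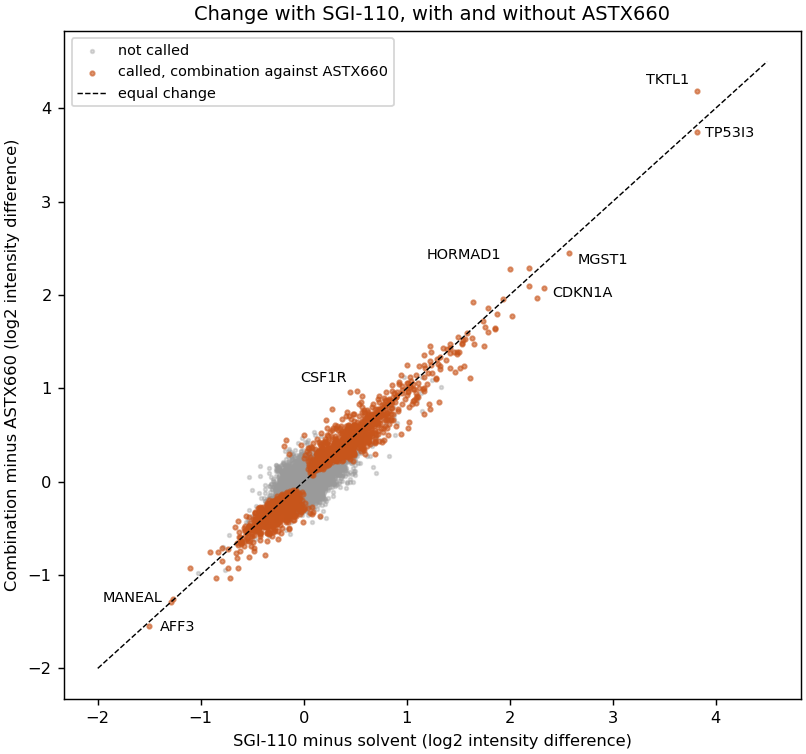
Each point is 1 tested gene, with its log2 difference between SGI-110 and solvent on the horizontal axis and between combination and ASTX660 on the vertical axis, called genes of the second comparison in orange. The dashed line marks equal change. TKTL1 (3.82 and 4.18) and AFF3 lie at the ends of a cloud along that line.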

How the data were processed

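Gene expression was measured on 12 Affymetrix arrays of ML-2 cells. Per the labels' protocols, 100 ng of total RNA was amplified and biotin-labelled with a 3′ IVT PLUS kit. The deposited values are log2 intensities. RMA and the affy package are named in the submitters' processing notes, with no version, and no source used here says whether all arrays shared 1 run. The values were tested as they stand.

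Of 54675 probe sets, 42898 are listed in the platform annotation. The 41091 with 1 gene were used, of which 41037 matched the RefSeq gene table, and 1801 with several genes were left out. A gene is its probe set with the highest mean over 12 arrays, tested when above the array median in at least 3 arrays (12689 of 19775 genes). limma 3.58.1 in R 4.3.3 fitted 1 mean per group to all 12 arrays, with an intensity trend, 8 residual degrees of freedom and Benjamini-Hochberg adjustment over all tested genes, called at adjusted p under 0.05. The median SE of a difference was 0.08496, and the number of arrays limits precision. The interaction is combination minus ASTX660, minus SGI-110 minus solvent. The fit was tested on simulated data with independent noise on each array. That simulation held neither a shift shared by arrays of a title number nor an outlying array, so it does not cover those. The p-values measure the spread among the 3 arrays of each group, all of 1 line. The fit had no term for the title number, so a shift shared by the arrays of a number counted as spread. Counts and lost calls are those of fits without that term, except where the block is named. How many lost calls go with such shifts was not tested.

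Named genes are the 12 largest rises and 12 largest falls among called genes with no overlap between groups, up to 4 members per list ranked by adjusted p, and a set from apoptosis and DNA methylation irrespective of result. Other list members are named after their values were seen, to describe the list. The comparison, the genes always named and the 24 lists, written from general knowledge, were chosen with earlier results of these data known. Lists share members and are described by counts and medians, with no set test. Promoters are RefSeq GRCh38.p14. Alternatives were each array left out, the arrays numbered 13 left out of all groups (added after seeing the data), the title number as a block, fewer arrays, other filters, scalings, probe set rules, weights and variance model.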

Additional observations from a re-analysis of the deposited data

Results flagged for a closer look

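Probe sets without a gene in the annotation used here carried signal outside the gene-level comparison. Of 11721 such probe sets, controls aside, 3503 passed the brightness filter, and limma called 178 of them between combination and ASTX660, 92 higher and 86 lower at an adjusted p under 0.05 within this set. At least 2-fold differences were called in 7 that were higher and 1 that was lower. The largest rises were 1.69 log2. These probe sets are unnamed here, and no gene is given for them. No gene was called for a difference between the SGI-110 change with ASTX660 and that without it, and groups of 3 arrays are too small for a search for single outlying arrays by gene.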

How the results depend on the processing

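With all arrays limma called 2038 genes between combination and ASTX660. Leaving out 1 array each gave 1310 to 1992 calls, with 691 to 1246 higher and 567 to 967 lower. A fit to only the 6 arrays of both groups gave 1232 calls, 732 higher and 500 lower. Array medians centred gave 1670 (54.07% higher) and quantile normalization 2278 (50.61% higher), against 52.11%. With the arrays numbered 13 left out of all 4 groups, an alternative chosen after seeing the data, 1054 were called, 629 higher and 425 lower, with 1046 for SGI-110 against solvent. The labels do not say that title numbers pair the arrays, and the number was not used as a block in the comparison. Deviations from the group means of combination and ASTX660 correlated at 0.05696, 0.1584 and 0.5393 for numbers 2, 9 and 13, and those of SGI-110 and solvent at 0.3771, 0.3669 and 0.5717. 1 of the 3 combination arrays matched its own number best. The number as a block gave 3378 calls, 1722 higher and 1656 lower, and 3474 without ASTX660 array 2, of which 2154 were higher. The 3378 held all 2038 calls of the fit without a block, with the same direction. Under the block 32 G2/M and mitosis genes were called lower, against 19 without it, and 21 maturation genes higher, against 14. Of 11 granule genes 5 were called higher and 2 lower, and MCL1 (adjusted p = 0.003893), PMAIP1 (0.005337) and KMT2A (0.009241) were called. SGI-110 against solvent, called at 1955, gave 3202 under that block and 3901 without ASTX660 array 2 as well. The interaction called 0 genes in every fit that could hold it, and the 6-array fit could not. Of 125 named genes 94 were called, and 63 of those kept call and direction in each alternative in which they were tested. Reversals of sign were limited to genes not called, with values near 0. BIRC6 was 0.12 without ASTX660 array 2, 0.10 with the block as well and 0.05 with array weights. With 1 array left out BIRC6 ranged from −0.14 to 0.12, XIAP from −0.09 to 0.13, CASP8 from −0.02 to 0.18 and DCK from −0.07 to 0.06. XIAP was 0.13 without combination array 2, 0.04 without ASTX660 array 2, 0.07 with the block as well, 0.08 with the mean of probe sets and 0.05 with array weights. CDK6 was 0.04 and HBB −0.00 with the mean of probe sets, and CASP8 was −0.02 without ASTX660 array 9. DCK was −0.02 without the arrays numbered 13, −0.07 without combination array 9, −0.04 without ASTX660 array 13, and −0.00 without ASTX660 array 9 and with medians centred. The causes were not tested. Signal over background limits the folds of 54 genes called higher whose ASTX660 mean lay below every array median, 23 of them at least 2-fold.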

Other observations

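The share of called genes differed from chromosome to chromosome, and those named here were picked for high shares after the values were seen. On chromosome 12, 92 of 704 tested genes were higher in the combination than in ASTX660 (13.07%, or 13.35% without ASTX660 array 2), against 8.37% of all genes, and 13.49% were higher in SGI-110 than in solvent. On chromosome 13, 31 of 230 were lower (13.48%, or 10.87% without that array), against 7.69% of all genes. On chromosome 21 the share of lower genes was 14.49% with all arrays and 7.246% without ASTX660 array 2. These are descriptions of shares, with no test.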
